A study of Mus musculus with 29 samples.

Results

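Lung tumours of mice with an oncogene transgene, with or without a Mad2 transgene, were compared on Affymetrix expression arrays, over 11 of the 29 arrays of the series. The 11 arrays hold 8 primary tumours labelled TI-KM and 3 primary tumours labelled TI-K. TI-K mice carry CCSP-rtTA and an oncogene behind the TRE promoter, and TI-KM mice carry both of these and TRE-Mad2. All are on a mixed 129/Bl6 background, and the labels give the tissue as lung adenocarcinoma or adenoma and give no age, treatment or time. Each array is 1 tumour, read from total RNA. The CCSP promoter is active in airway epithelium, where it places the reverse tetracycline transactivator rtTA, so that a transgene behind the TRE promoter is read in those cells when doxycycline is given. TI-K and TI-KM name the label of each array throughout.

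The arrays were chosen by a control signal and by the number in the sample title, because the primaries of the series fall into sets for which the labels have no name. An array was taken if its signal for the 3′ probe set of 18S ribosomal RNA was at or below 12000 and its title number was below 6000. Among TI-KM primaries the highest 18S signal taken was 10857, in TI-KM 8, and the lowest left out was 12867. Among TI-K primaries the highest title taken was K1024T and the lowest left out was K6843T. The arrays left out, called the other primaries below, are 6 TI-KM and 5 TI-K. Between those 2 groups 6344 of 14252 genes (44.5%) passed an adjusted p of 0.05, and there the genotype and the set of arrays cannot be told apart. The TI-KM arrays KM76T1 and KM76T2 among them share a title number, and the fit took them as independent. No label says if they are from 1 animal.

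Mad2, the product of Mad2l1, is a protein of the spindle assembly checkpoint. At a kinetochore that has no microtubule attached it is turned into a form that binds Cdc20, which keeps the anaphase-promoting complex from releasing the sister chromatids. Too much of it delays or disturbs mitosis, and the series title ties the transgene to chromosome instability. The comparison therefore asks which genes differed in oncogene-driven primary tumours when the Mad2 transgene was present as well.

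Values are MAS5 signals, which the authors deposited on a linear scale, and group differences are TI-KM minus TI-K on the scale log2(signal + 20), given with their standard error (SE). On that scale the change of a weakly expressed gene is understated. Signals of different genes come from different probes and were not set against each other. The sex inferred from Xist and Y-linked genes was female in 2 of 3 TI-K and in 3 of 8 TI-KM tumours. The 18S signal ran from 7950 to 9639 over the TI-K arrays and from 8516 to 10857 over the TI-KM arrays. The log2 ratio of 3′ to 5′ signal of the control transcripts, which is larger when RNA is shorter, was 2.48 ± 0.41 (SD, n = 3) in TI-K and 2.13 ± 0.31 (SD, n = 8) in TI-KM. The part of sex, 18S signal and RNA length in the differences below was not separated in the main test, and covariate fits are given in the closing section.

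The tissue label was checked against markers of the alveolar type II cell, the surfactant-making cell of the lung. Over the 11 arrays the signal was 14503 to 22336 for the surfactant gene Sftpc, 21476 to 27885 for Sftpd and 11144 to 18004 for the protease gene Napsa. The lung transcription factor Nkx2-1 was near background, at 6.37 to 96.9. The array labelled TI-KM 8 stood apart from the rest. In it 176 genes were at least 2-fold above every other array, against 0 to 38 genes in each of the other arrays. They included the airway secretory genes Bpifa1, at 10559 against at most 545 elsewhere, and Bpifb1, at 1888 against at most 105. The counts of the main lists and the scores are also given without it.

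No gene passed an adjusted p of 0.05 in the limma fit, 0 of 14028 (0%), and the smallest adjusted p was 0.247. Without adjustment, 1014 genes (7.23%) had a p below 0.05, of which 457 (3.26% of all genes) were higher and 557 (3.97%) lower in TI-KM. The groups did not overlap in 129 genes with every TI-KM array above every TI-K array (0.92%) and in 122 genes with every TI-KM array below (0.87%). The direction was evenly divided, with 6924 genes (49.4%) higher in TI-KM and a median difference of -0.0041 over all genes. Differences of at least 2-fold were found for 67 higher and 130 lower genes. All members named below are therefore a ranking by size and not genes that passed the test. With 3 TI-K arrays, the exact permutation test over the 165 ways of choosing 3 of 11 arrays can give no 2-sided p below 0.00606. Leaving out TI-KM 8 gave 1 gene past an adjusted p of 0.05, Amhr2, the receptor of anti-Müllerian hormone, at -2.40 ± 0.20 (adjusted p = 3.66e-04). With all 11 arrays Amhr2 stood at -2.09 ± 0.47 (adjusted p = 0.298), with TI-K signals from 444 to 656 and TI-KM signals from 69.5 to 610. Against all 8 TI-K primaries, which adds the TI-K arrays of another set, 488 of 14294 genes (3.41%) passed.

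Mad2l1 was not higher in the tumours with the Mad2 transgene. Its signals were 1033, 724 and 1478 in TI-K 6, 7 and 8, and ran from 492 over a median of 790 to 1271 in TI-KM. The TI-KM range lay within and below the TI-K range, with 3 TI-KM arrays below every TI-K array. The difference was -0.40 ± 0.26 (adjusted p = 0.808 by limma; exact 2-sided permutation p = 0.212), -0.65 without TI-K 7 and -0.14 without TI-K 8. A single probe set represents the gene, and no source here says if it reads the RNA of the transgene, so Mad2l1 does not check the genotype labels. In the other primaries the TI-K signals ran from 574 to 1299 and those of TI-KM from 515 to 867, and the normal lung of the series, 1 array, had 340.

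Bambi, on chromosome 18, had the largest mean difference of the named genes at the offset of 20, while at an offset of 1 it stood at 3.53 and Cda at 3.79. It encodes a membrane protein that resembles a TGF-beta family type I receptor, lacks the kinase domain and dampens signalling by TGF-beta, BMP and activin. The TI-K signals were 733, 831 and 735. In TI-KM the signals were 17957, 15984, 14074, 1777, 21184, 15719, 940 and 16841 for replicates 7 to 14. The groups did not overlap, yet the TI-KM arrays were of 2 kinds: 6 lay between 14074 and 21184, and TI-KM 10 and 13 lay at 1777 and 940, much closer to the TI-K arrays. The mean difference was 3.50 ± 0.84, or 11.3-fold (adjusted p = 0.318; exact permutation p = 0.00606, the smallest this design can give). Without TI-KM 8 it was 3.38 ± 0.86 (adjusted p = 0.269). The other TI-KM primaries also divided, with 962, 621 and 688 in replicates 1 to 3 and 6904, 10296 and 6083 in replicates 4 to 6, against 566 to 1108 in the other TI-K primaries. The normal lung had 175. Bambi and Cda were proposed as markers of this comparison with these arrays in view, so their tests are not independent of that choice.

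Cda, at chr4:138338528-138368311 of GRCm38.p6, encodes cytidine deaminase, which turns cytidine and deoxycytidine into uridine and deoxyuridine in the salvage of pyrimidines and also inactivates cytidine analogues used as drugs. The TI-K signals were 5.84, 8.88 and 19.04, all below the offset of 20. In TI-KM the signals for replicates 7 to 14 were 171, 53.6, 29.5, 278, 143, 246, 362 and 292. Every TI-KM array was above every TI-K array, with TI-KM 8 and 9 closest to them. The difference was 2.54 ± 0.54, or 5.83-fold (adjusted p = 0.283; exact permutation p = 0.00606), and 2.73 ± 0.50 without TI-KM 8. Because the TI-K level is near background, the size depends on the offset: it was 3.79 with an offset of 1 and 1.63 with an offset of 64. The other primaries had TI-K signals from 5.07 to 66.9 and TI-KM signals from 102 to 264, and did not overlap either. The normal lung, at 56.0, was above all 3 TI-K tumours.

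Bambi and Cda did not follow each other. TI-KM 10 and 13, the arrays with low Bambi, had Cda at 278 and 362, while TI-KM 9, with Bambi at 14074, had the lowest Cda of the group. Pearson's r of the log2 values was 0.40 over the 11 arrays and -0.50 over the 8 TI-KM arrays, both descriptions over arrays that share a platform and a scaling. The genes with the pattern most like Bambi over the 11 arrays were Alb (r = 0.96), Fjx1 (0.93), Top1 (0.92), Gabrd (0.90) and Tgfbr3 (0.89). Those most like Cda were Capzb (r = 0.97), Pink1 (0.96), E130018N17Rik (0.94), 1810010H24Rik (0.92) and Bcl2l1 (0.91). Both lists hold the highest r found in a search of the 14028 genes over 11 arrays, so the size of r partly reflects that choice.

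**Figure D1:**
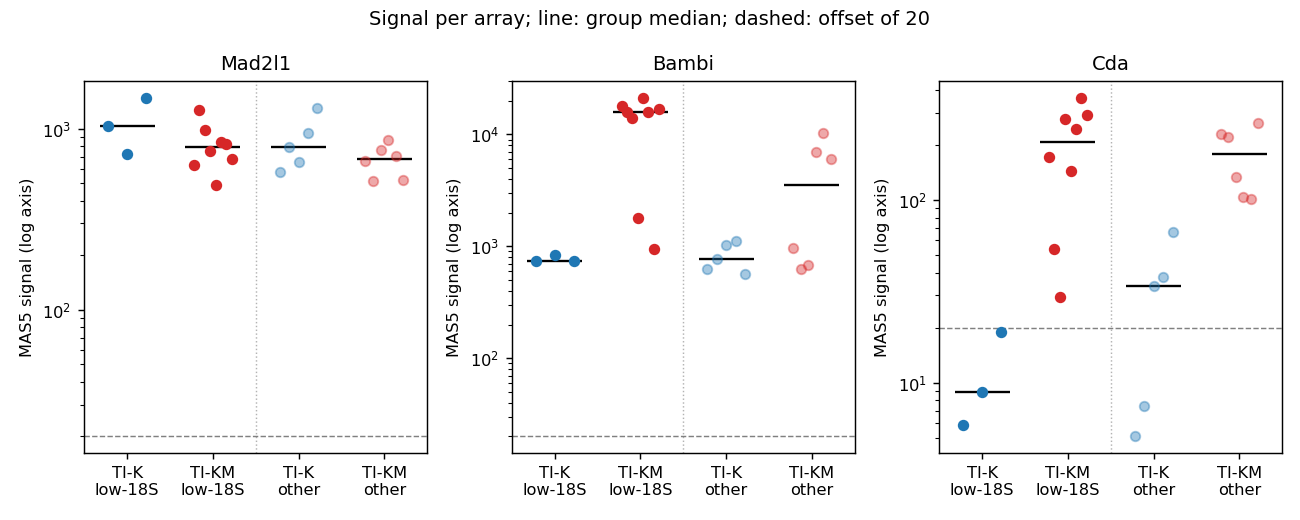
MAS5 signal (log axis) of Mad2l1, Bambi and Cda, 1 point per tumour array, with the low-18S primaries left of the dotted line and the other primaries right of it; horizontal lines are group medians and the dashed line is the offset of 20. Mad2l1 overlaps between the groups, Bambi is high in 6 of 8 low-18S TI-KM tumours, and all 3 low-18S TI-K tumours have Cda below the offset.

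Of the ligands, receptors, inhibitors and targets of the pathway of Bambi, 3 had an unadjusted p below 0.05, Bambi itself among them. The list of TGF-beta and BMP genes had 51 measured members, of which 2 were higher and 1 was lower at such a p, beside 3.26% and 3.97% of all genes. Bambi, which was chosen as a marker, was 1 of the 2 higher. The list had a median difference of 0.05. Among receptors, 1 of 12 had such a p: Tgfbr3, the co-receptor betaglycan, at 0.64 ± 0.19 (adjusted p = 0.443), with 1286, 1214 and 1337 in TI-K and 1279, 1999 and 2640 as the lowest, median and highest TI-KM signal. Among inhibitors, Bambi and Grem1 were the 2 of 14. Grem1, a secreted BMP antagonist, stood at -0.81 ± 0.32 (adjusted p = 0.593), with 286, 245 and 175 in TI-K and at most 170 in TI-KM, so that the groups did not overlap. None of 11 ligands, 5 transducers and 9 targets had an unadjusted p below 0.05. Target genes of the pathway had a median difference of 0.01, with the BMP target Id1 at 0.19 and the TGF-beta target Pmepa1 at 0.01.

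The enzymes around Cda gave a similarly low count. Of 25 measured genes for pyrimidine salvage, supply and breakdown, 1 was higher (Cda) and 1 lower at an unadjusted p below 0.05, with a median of -0.003. Each is 1 of 25, near the 3.26% higher and 3.97% lower over all genes, and Cda was chosen as a marker. Without TI-KM 8, 2 were lower, beside 4.64% of all genes, and the median was -0.11. The lower one was Dpys, the dihydropyrimidinase of pyrimidine breakdown, at -1.13 ± 0.41 (adjusted p = 0.558). Its signals were 156, 169 and 113 in TI-K and ran from 4.005 over 68.7 to 94.3 in TI-KM, without overlap. The other 10 salvage genes had no such p, among them the kinases Dck, at -0.20, and Uck2, at 0.22.

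The 12 genes with the largest higher values, taken among the 110 non-overlapping genes with a mean TI-KM signal of at least 200, were Bambi and 11 others. They included metabolic enzymes. Cbr2, at chr11:120729485-120732025, encodes the carbonyl reductase of the lung and is a gene of the club cell, the secretory cell of small airways. It had 1194, 808 and 2865 in TI-K and 4392, 8878 and 16442 as the lowest, median and highest signal in TI-KM, a difference of 2.63 ± 0.42, or 6.20-fold (adjusted p = 0.247). TI-K 8 was the TI-K array closest to the TI-KM range, and TI-KM 8, 14 and 9 were the highest. Without TI-KM 8 the difference was 2.505 ± 0.40 (adjusted p = 0.133). The normal lung had 16110, above all but the highest TI-KM array.

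Aldh3a1, at chr11:61208510-61218418, encodes an aldehyde dehydrogenase that clears aromatic and lipid aldehydes. Its TI-K signals were close together at 65.0, 67.2 and 57.0, and the TI-KM signals ran from 248 over 339 to 1363. The difference was 2.54 ± 0.44, or 5.80-fold (adjusted p = 0.247), and 2.32 ± 0.35 without TI-KM 8 (adjusted p = 0.103). In the other primaries the order was the opposite, with TI-K signals from 241 to 929 and TI-KM signals from 60.6 to 145 (-1.99). This contrast between the sets was not tested. Fbp2, the muscle form of the gluconeogenic enzyme fructose-1,6-bisphosphatase, had 1477, 1167 and 363 in TI-K and from 1997 up to 4867 in TI-KM (1.91 ± 0.38, adjusted p = 0.283). It too was the other way round in the other primaries, at -1.56. Acaa2, a thiolase of mitochondrial fatty acid oxidation on chromosome 18, had 1279, 2678 and 2673 in TI-K and from 2828 up to 5816 in TI-KM (0.92 ± 0.25). Without TI-K 6, the lowest array, the difference was 0.57, and 2 further probe sets gave 0.65 and 0.50.

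The remaining higher genes encode surface, secreted and nuclear proteins. Cd177, a surface glycoprotein known from neutrophils, had 530, 378 and 229 in TI-K and from 607 up to 6015 in TI-KM (2.59 ± 0.57, adjusted p = 0.298). Gpc3, a cell-surface heparan sulfate proteoglycan, had 109, 59.3 and 73.1 in TI-K and from 131 up to 586 in TI-KM (1.59 ± 0.32, adjusted p = 0.283). Itih2, a heavy chain that binds hyaluronan in the matrix, had 305, 218 and 389 in TI-K and from 456 up to 1330 in TI-KM (1.39 ± 0.30, adjusted p = 0.298). For these 3 genes the lowest TI-KM array lay within 1.5 times of the highest TI-K array. The neutrophil list described further on had a median of -0.28 while Cd177 was higher. Ccno, a cyclin needed to build the centrioles of multiciliated cells, stood at 1.20 ± 0.26, 1810010H24Rik at 1.16 ± 0.26 and Tox, a nuclear protein of T cell development, at 0.94 ± 0.28. The further probe sets of Tox gave 0.25 and 0.43. Naaladl2 had 102, 19.8 and 147 in TI-K and from 161 up to 433 in TI-KM (1.26 ± 0.38), and stood at 0.65 without TI-K 7, the lowest array.

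Among the 12 genes with the largest lower values, taken from 84 such genes, were several of macrophages and other myeloid cells. Siglecf, at chr7:43351341-43359475, encodes a sialic acid-binding lectin of alveolar macrophages and eosinophils. Its signals were 3031, 3438 and 2054 in TI-K and ran from 325 over 1174 to 1682 in TI-KM, a difference of -1.45 ± 0.37 (adjusted p = 0.326). Fpr2, a receptor for formylated peptides on phagocytes, had 9964, 8716 and 3964 in TI-K and from 781 up to 3432 in TI-KM (-2.01 ± 0.41, adjusted p = 0.283). The gene belongs to a family of close copies that the probes may not fully separate. In bulk tumour RNA, fewer cells of a type and less RNA per cell cannot be told apart.

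Cd1d1, at chr3:86995834-87012358, presents lipid antigens to natural killer T cells. It had 2541, 1983 and 882 in TI-K and 357, 492 and 803 as the lowest, median and highest TI-KM signal (-1.63 ± 0.29, adjusted p = 0.247). The second probe set gave -1.41. The gene has a near-identical neighbour, so the values may mix both. The normal lung, at 11755, was far above every tumour of both groups. Ly75, the endocytic receptor DEC-205 of dendritic cells, stood at -1.30 ± 0.29, the Src-family kinase gene Fgr at -1.10 ± 0.22, with -0.64 for its other probe set, Mcemp1, a membrane protein of mast cells and phagocytes, at -1.13 ± 0.26, and Apobr, the macrophage receptor for apolipoprotein B48, at -1.10 ± 0.21. Their adjusted p-values were between 0.283 and 0.318.

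Not all of the lower genes are known only from myeloid cells. Il18, a cytokine made by epithelium and macrophages, had 10346, 3321 and 3213 in TI-K and from 1122 up to 2834 in TI-KM (-1.22 ± 0.33), and -0.67 without TI-K 6, the highest array. The chemokine gene Cxcl14 had 1356, 523 and 481 in TI-K and from 216 up to 477 in TI-KM. It stood at -1.09 ± 0.31 and -1.06 on 2 probe sets, and at -0.63 without TI-K 6. Nudt19, a hydrolase of coenzyme A, stood at -1.45 ± 0.36 but at -0.36 on its other probe set, and at 1.71 in the other primaries. AI504432 stood at -1.27 ± 0.27 and -1.07 on 2 probe sets. Trim5, of the antiviral tripartite-motif family, had 401, 305 and 165 in TI-K and from 1.58 up to 154 in TI-KM (-2.51 ± 0.64, adjusted p = 0.326), and it has close copies beside it. In all 12 lower genes TI-K 8 had the lowest of the TI-K signals, so that it was the TI-K array nearest to the TI-KM range.

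**Figure D2:**
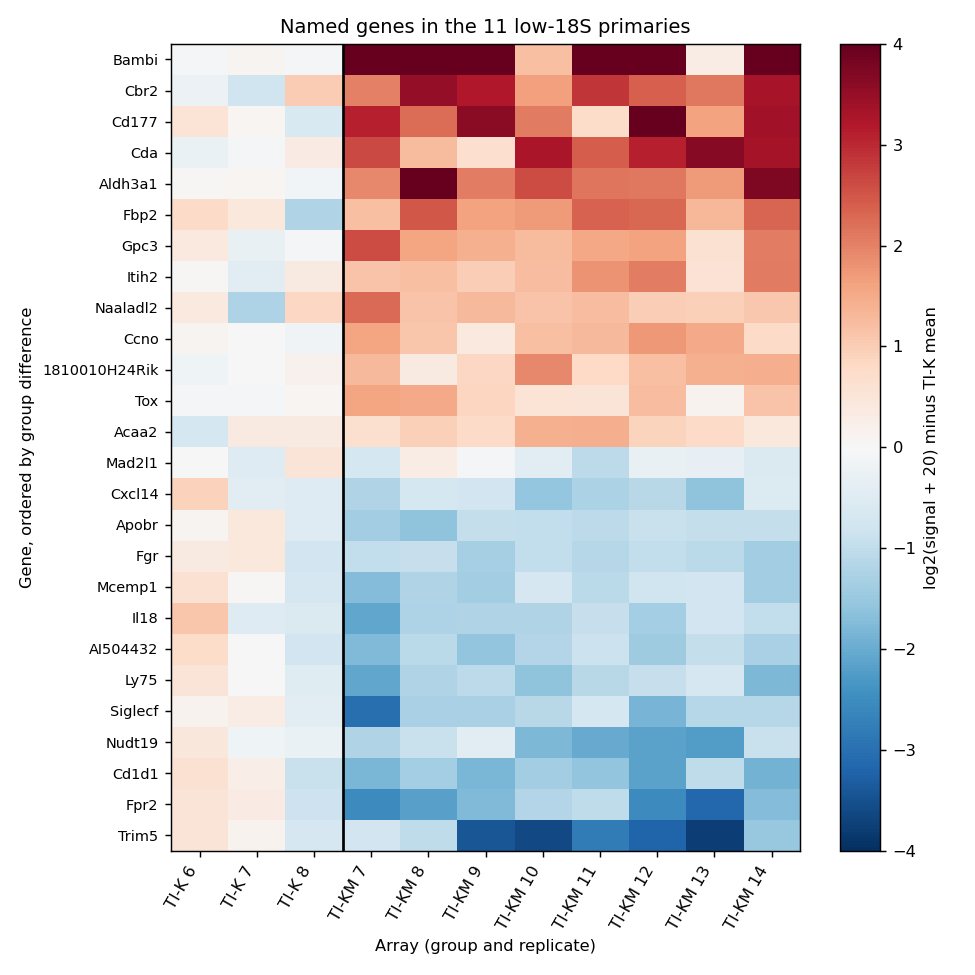
Each of the 26 named genes (rows) in the 11 low-18S primaries (columns), as log2(signal + 20) minus the TI-K mean; the colour scale ends at 4 and -4, and the black line parts TI-K from TI-KM. Bambi is near white in TI-KM 13, and TI-K 8 has the lowest TI-K value in all 12 lower genes.

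The named genes were set beside the other primaries, which share no array with this comparison. Of the 12 higher genes, 6 were higher and 6 lower there. Of the 12 lower genes, 3 were lower and 9 (75%) higher, beside 57.6% higher and 42.4% lower for the 13656 genes measured in both. The order of TI-KM and TI-K in the 11 arrays was thus not the order in the other primaries for 15 of these 24 genes.

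Letters upstream of 3 genes from both sides of the comparison are shown, beside a search for motifs of factors active in lung epithelium or in myeloid cells. Windows of 250 bases before a RefSeq start (GRCm38.p6) were found for 19 of the 26 named genes. For 8 of these, Cda among them, the listed start is not the outermost one and the window overlaps the gene itself. They were searched on both strands for TATAAA, for GAGGAAGT (a site of the myeloid factor PU.1), for TTGCNNAA (C/EBP), for TGACNNNGC (the antioxidant response element) and for TGANTCA (AP-1, an output of MAPK signalling). Of the windows wholly outside their gene, those of the higher genes Fbp2 and Itih2, which have an AP-1 match, and of the lower gene Siglecf are printed; capitals mark a match, and the minus-strand genes are printed in their own direction. Fbp2 (chr13:62858401-62858650, minus strand) holds AP-1, Itih2 (chr2:10130684-10130933, minus) holds AP-1 and then C/EBP, and Siglecf (chr7:43351091-43351340, plus) holds none of the motifs.
Fbp2: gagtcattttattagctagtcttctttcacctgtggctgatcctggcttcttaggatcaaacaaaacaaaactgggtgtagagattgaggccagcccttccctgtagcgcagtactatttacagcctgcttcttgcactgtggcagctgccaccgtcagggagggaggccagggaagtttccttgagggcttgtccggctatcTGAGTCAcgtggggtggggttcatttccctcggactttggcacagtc
Itih2: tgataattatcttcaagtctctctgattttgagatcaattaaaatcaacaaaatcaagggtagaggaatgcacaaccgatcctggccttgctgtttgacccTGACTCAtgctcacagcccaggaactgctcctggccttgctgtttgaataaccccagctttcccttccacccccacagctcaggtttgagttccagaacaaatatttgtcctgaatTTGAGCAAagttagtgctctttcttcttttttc
Siglecf: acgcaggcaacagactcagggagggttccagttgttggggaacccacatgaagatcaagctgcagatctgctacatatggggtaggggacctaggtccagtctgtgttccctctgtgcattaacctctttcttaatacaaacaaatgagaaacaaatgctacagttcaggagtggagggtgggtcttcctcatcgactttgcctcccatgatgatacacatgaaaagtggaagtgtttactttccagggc
Over all 32851 windows of this length 6.75% held AP-1, 2.44% PU.1, 9.56% C/EBP, 10.2% the antioxidant element and 12.4% TATAAA. Among the 8 windows of Cda and the named higher genes, 2 held AP-1, 1 held C/EBP, 1 held TATAAA and none held PU.1 or the antioxidant element. Among the 10 windows of the named lower genes, 2 held PU.1, 2 C/EBP, 2 TATAAA, 1 AP-1 and 1 the antioxidant element. These counts include windows that overlap their gene. A match describes these letters and shows no binding.

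Markers of macrophages and dendritic cells were on balance lower in TI-KM. Of 20 measured list members, 7 were lower and 1 was higher at an unadjusted p below 0.05, beside 3.97% and 3.26% of all genes. By sign 17 of 20 were lower, beside 7104 of all 14028 genes, and the median was -0.28 beside -0.0041 for all genes. Without TI-KM 8 the counts were again 7 lower and 1 higher, beside 4.64% and 3.92% of all genes. The median was -0.48 without TI-K 6 and -0.47 without TI-K 8. Over all fits that left out 1 array it ran from -0.48 to -0.22, and over the other settings from -0.48 to -0.20. The leading members besides Siglecf were the scavenger receptor Msr1, at -1.12 ± 0.28, with 895, 1306 and 431 in TI-K and from 259 up to 502 in TI-KM, and the pore-forming protein Mpeg1, at -0.80 ± 0.25, with 16144, 11585 and 11125 in TI-K and from 3704 up to 10429 in TI-KM. The mannose receptor Mrc1, at -0.99 ± 0.32, also did not overlap. Complement C1qa, at -0.06, and Adgre1, the gene of F4/80, at -0.04, had no such p, and Cd14 was higher at 0.40 ± 0.17. The summed signal of the list ran from 104090 to 144100 over TI-K and from 78170 to 123320 in TI-KM. TI-K 6 and 7 were the highest, TI-KM 7 the lowest, and TI-K 8 lay among the TI-KM arrays. No measured member was below a signal of 20 on all 11 arrays. The pan-leukocyte gene Ptprc stood at -0.94 ± 0.31. The part of cell content in the values of Siglecf, Fpr2 and the other myeloid genes was not tested.

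Other immune lists had medians below 0 with few members at an unadjusted p below 0.05, beside 3.26% of all genes higher and 3.97% lower. By sign alone, 7104 of all 14028 genes were lower. Of 10 neutrophil genes 1 was lower, the cytokine gene Il1b at -0.98 ± 0.35, with 869, 1530 and 389 in TI-K and from 289 up to 741 in TI-KM, and the list median was -0.28, which was -0.09 without TI-K 7 and -0.54 without TI-K 8. All 9 MHC class II genes were lower by sign, none with such a p, with a median of -0.26 and the invariant chain Cd74 at -0.26. The median was -0.41 without TI-K 6. Among 23 genes of the interferon response and MHC class I, 21 were lower by sign and none had such a p (median -0.26, which was -0.47 without TI-K 6 and -0.08 without TI-K 8). For 18 genes of T, NK and B lymphocytes the median was -0.15, with none, and -0.02 without TI-K 8. With all 8 TI-K primaries these 3 medians were above 0, at 0.17, 0.07 and 0.04, so their direction is not settled. Of 14 epithelial cytokines and chemokines, 3 were lower and 1 higher, with Il18 and Il6 not overlapping (median -0.25, and -0.12 without TI-K 7). Il6 had 122, 91.7 and 68.6 in TI-K and from 12.5 up to 66.6 in TI-KM (-0.90 ± 0.30), while the alarmin Il33 was higher at 0.59 ± 0.27.

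Airway markers were on balance higher in TI-KM, but unevenly over arrays. Of 15 measured club cell genes, 6 were higher and none lower at an unadjusted p below 0.05, with a median of 0.49, beside 3.26% and 3.97% of all genes. Without TI-KM 8 the count was 3 of 15, beside 3.92% of all genes, with a median of 0.37. The median was 0.23 with the 3′/5′ ratio as a covariate and fell below 0, to -0.16, with all 8 TI-K primaries, which adds arrays of another set. Besides Cbr2 these were led by Gsta4, a glutathione transferase, at 0.63 ± 0.20, and Aldh1a7, a retinal dehydrogenase relative with a near-identical copy, at 0.54 ± 0.21. The defining secretory gene of the club cell, Scgb1a1, was at -0.37, with no such p and signals from 1976 to 28464 over the 11 arrays. The summed signal of the list ran from 49873 to 69826 over TI-K and from 49792 to 185670 in TI-KM, where TI-KM 8, 9 and 14 stood above all other arrays. Those 3 arrays also had the 3 highest signals of Cbr2, and the part of airway cell content in Cbr2 was not tested.

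Of 18 ciliated cell genes 17 were higher by sign, beside 49.4% of all genes. Only Dnah11, an axonemal dynein, had an unadjusted p below 0.05 (0.69 ± 0.24). It had 36.6, 57.3 and 39.2 in TI-K and 63.2, 76.7 and 137 as the lowest, median and highest TI-KM signal, without overlap. The summed signal of these genes ran from 5497 to 9004 over TI-K and from 6512 to 20564 in TI-KM, the highest in TI-KM 8. Without TI-KM 8 again 1 of 18 was higher, beside 3.92% of all genes, and the median was 0.23. Over all genes 3.26% were higher and 3.97% lower at such a p. The alveolar type II list had 2 higher and 2 lower of 20 (median 0.04), with the calcium-binding protein gene S100g at -0.91 ± 0.23 and no overlap. Of 16 alveolar type I genes, 2 were higher, led by Pdpn (podoplanin) at 1.06 ± 0.26, with 1545, 1136 and 999 in TI-K and from 1450 up to 4003 in TI-KM. Endothelial genes had a median of 0.13 and fibroblast and matrix genes one of 0.02, each with 1 lower member at such a p, of 23 and 25.

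**Figure D3:**
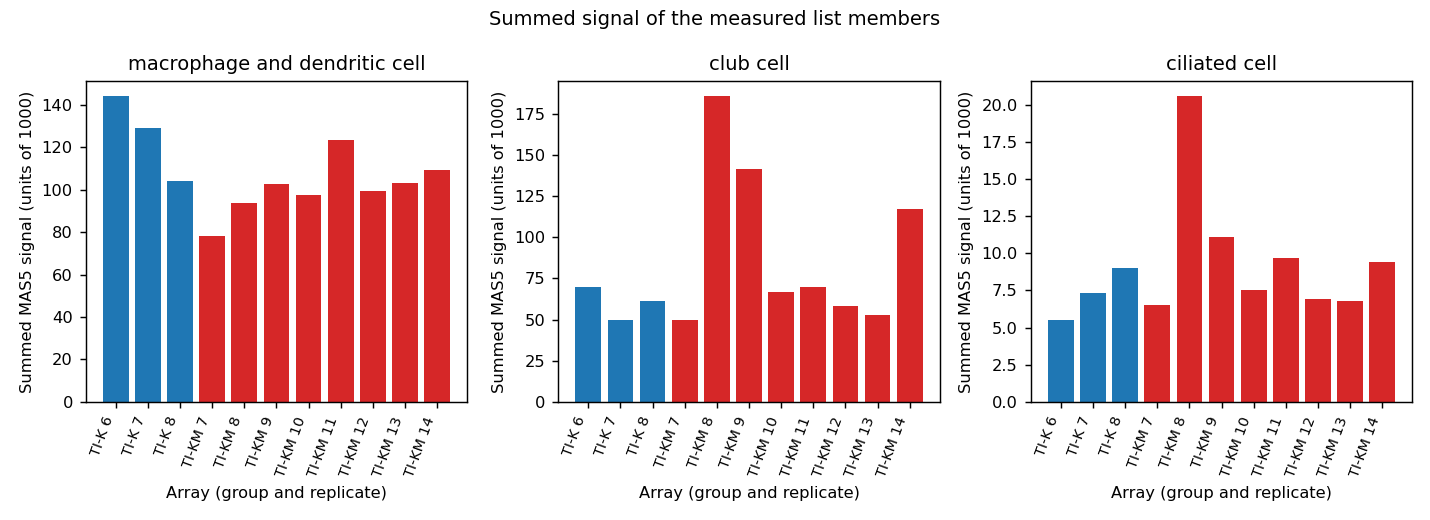
Summed MAS5 signal (axis in units of 1000, from 0) of the measured members of 3 cell type lists in each of the 11 arrays, TI-K in blue and TI-KM in red. The macrophage sum is highest in TI-K 6 and 7, and the club cell sum is highest in TI-KM 8, 9 and 14.

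In mitosis, the process in which Mad2 acts, most checkpoint genes were lower in TI-KM by sign. Of 30 spindle checkpoint and kinetochore genes, 2 were lower and none higher at an unadjusted p below 0.05, beside 3.97% of all genes lower at such a p. By sign 23 were lower, beside 7104 of all 14028 genes, and the median was -0.23. TI-K 8 was the highest array, with a median deviation over the list of 0.57, against 0.05 and -0.05 in TI-K 6 and 7 and -0.39 to 0.30 in TI-KM, and without it the list median was -0.07. Without TI-KM 8, 3 members were lower, beside 4.64% of all genes. Cenpa, the histone variant of the centromere, had 521, 320 and 444 in TI-K and from 133 up to 424 in TI-KM (-0.84 ± 0.26, adjusted p = 0.446). Bub1b, the checkpoint kinase-like protein BubR1 that joins Mad2 in holding Cdc20, had 246, 416 and 404 in TI-K and from 147 up to 280 in TI-KM (-0.61 ± 0.22). Cdc20 was at -0.10 and Mad1l1, the partner of Mad2 at the kinetochore, at 0.10. Of 31 mitotic cyclins, kinesins and APC subunits, 1 was higher, Anapc4 at 0.30 ± 0.11 without overlap, and 1 lower, Ccna2 at -0.50 ± 0.23, with a median of -0.23, which was -0.02 without TI-K 8. Without TI-KM 8, 3 of 31 were lower, beside the same 4.64% of all genes. The CIN70 list, a published set of genes whose expression follows chromosome instability in human tumours and which is rich in cell-cycle genes, had 2 higher and 4 lower of 69, beside 3.26% and 3.97% of all genes (median -0.10). Without TI-KM 8, 7 were lower, beside 4.64% of all genes, and the median was -0.22 without TI-K 7 and -0.01 without TI-K 8. None of 30 DNA replication genes had such a p (median -0.10, and -0.03 without TI-KM 11).

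In the unfolded protein response, by which cells adjust to misfolded protein in the endoplasmic reticulum, 6 of 24 genes were higher and none lower at an unadjusted p below 0.05, beside 3.26% of all genes higher. By sign 21 were higher, beside 49.4% of all genes, and the median was 0.15. Without TI-KM 8 the count was 4, beside 3.92% of all genes. Pdia6, a disulfide isomerase of the endoplasmic reticulum, had 4062, 3891 and 3977 in TI-K and 4380, 6053 and 7764 as the lowest, median and highest TI-KM signal (0.61 ± 0.16, adjusted p = 0.326), without overlap. Herpud1, of protein degradation at that membrane, was at 0.57 ± 0.21 and the isomerase Pdia4 at 0.56 ± 0.23. Of 19 genes of the heat shock and immediate early list, which respond to handling of tissue, 2 were higher and 1 was lower: Hspa1a at 1.51 ± 0.45 and Hspa1b at 1.11 ± 0.38, near-identical copies, and Egr2 at -1.11 ± 0.30. The part of handling in these values was not tested.

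At an unadjusted p below 0.05, a bar that 3.26% of all genes passed as higher and 3.97% as lower, 1 of 24 p53 targets and cell-cycle inhibitors was higher, Rprm, which arrests cells in G2, with 741, 716 and 824 in TI-K and from 870 up to 2088 in TI-KM (0.89 ± 0.21, adjusted p = 0.318). Cdkn1a, the main p53 target of cell-cycle arrest, had means of 8060 in TI-K and 7775 in TI-KM. Of 14 BCL2 family genes 2 were higher and 1 was lower, with a median of -0.08. The pro-apoptotic gene Bik had TI-K signals from 774 to 947 and TI-KM signals from 425 to 572 (-0.72 ± 0.14, adjusted p = 0.283), without overlap. The survival gene Bcl2l1, 1 of the 2 higher members, was at 0.33 ± 0.12. Of 23 genes of MAPK output, 2 were higher, the phosphatase gene Dusp4 at 0.52 ± 0.21 without overlap and Ier3 at 0.86 ± 0.39 (median 0.18). Without TI-KM 8, 6 were higher, beside 3.92% of all genes. The median was 0.11 without TI-K 7 and 0.30 without TI-K 8. Of 20 Nrf2 and xenobiotic defence genes 4 were higher, Gsta4, Gstm1, Cyp1b1 and Gsta3, of which Gsta4 and Gsta3 are also on the club cell list (median 0.08). Of 25 genes of epithelial junctions and keratins 3 were higher, led by Dsp, desmoplakin, at 0.57 ± 0.17 (median 0.17). All 14 genes of mesenchymal transition were lower by sign, beside 7104 of all 14028 genes, with none at such a p (median -0.19). The first median was 0.30 without TI-K 8 and the second -0.11 without TI-K 7.

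**Figure D4:**
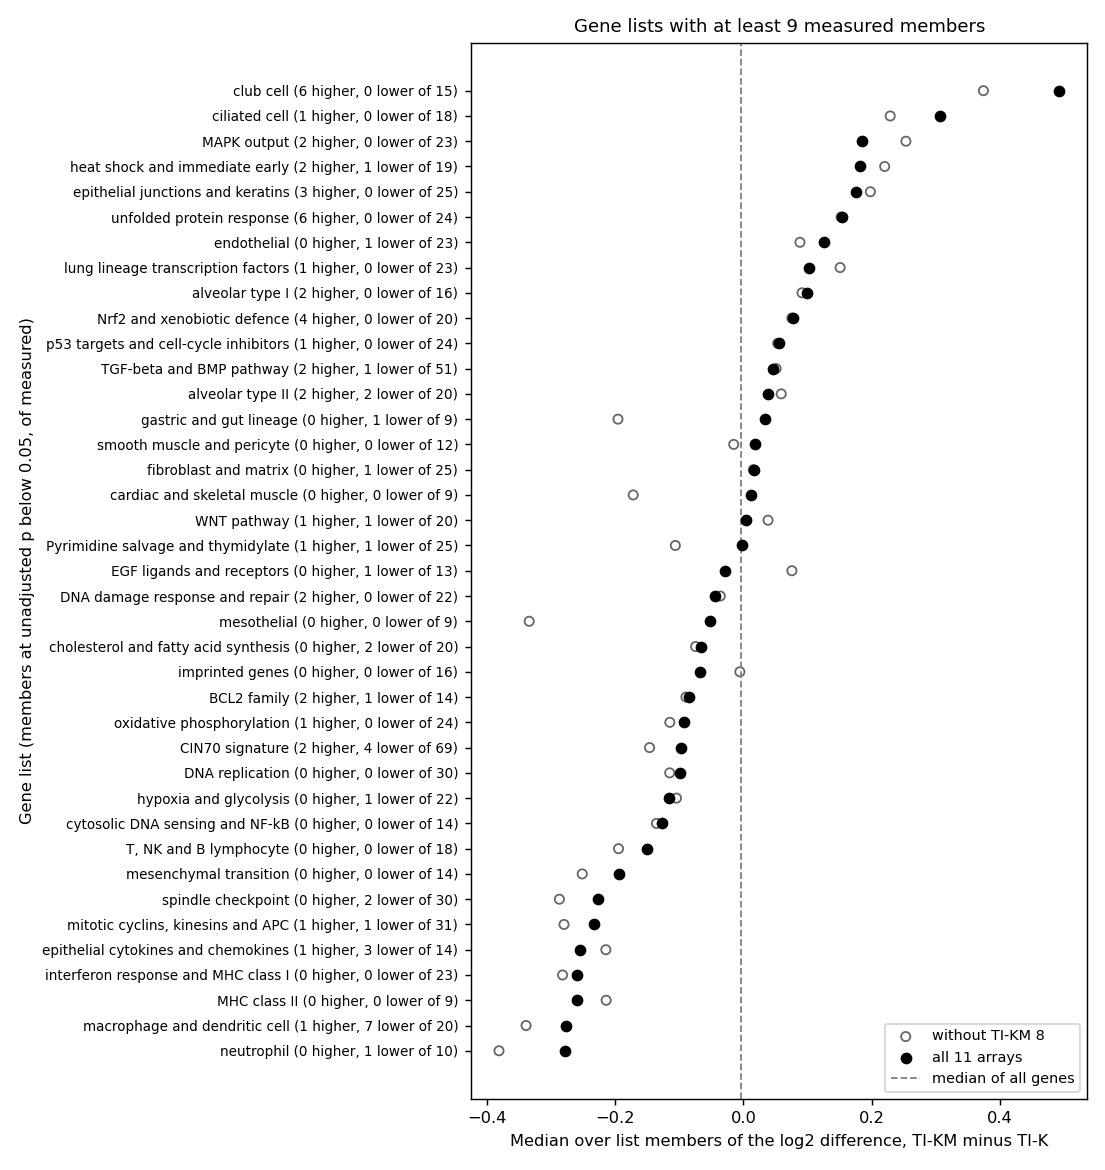
Median log2 difference, TI-KM minus TI-K, over the measured members of each gene list with at least 9 of them (filled points, all 11 arrays; open points, without TI-KM 8), beside the median of all genes (dashed line). The club cell list lies at 0.49 and the macrophage and neutrophil lists at -0.28; the labels count members at an unadjusted p below 0.05.

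The tumours were also compared for how much they differed from each other, since a gain or loss of chromosomes can differ from tumour to tumour. Both scores below are built on residuals from the group mean, so a change shared by all tumours of a group does not enter them. The spread score of an array is the root mean square of its residuals from the group mean over the 14028 genes, corrected for group size. It was 0.413 ± 0.053 (SD, n = 3) in TI-K and 0.436 ± 0.080 (SD, n = 8) in TI-KM, a difference of 0.022 (exact 2-sided permutation p = 0.715). TI-KM 8 had the highest score, 0.601, and without it TI-KM was lower by sign, at -0.00651. For the chromosome score, the median residual was taken over the genes of each of the 19 autosomes (347 to 1144 genes), and the score is the SD of these medians. It reads expression that neighbours share and is no measure of copy number. It was 0.0263 ± 0.0018 (SD, n = 3) in TI-K and 0.0269 ± 0.0065 (SD, n = 8) in TI-KM (difference 0.00062, exact permutation p = 0.861). The TI-KM arrays ran from 0.0186 to 0.0353, to both sides of the TI-K range of 0.0243 to 0.0275, and without TI-KM 8 the difference was -4.2e-04.

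No autosome's median residual from the group mean was beyond 0.110 in any array. The highest medians were 0.110 for chromosome 3 in TI-KM 8, 0.105 for chromosome 7 in TI-KM 14 and 0.094 for chromosome 13 in TI-KM 8, on the log2 scale. Among TI-K arrays the largest was -0.084 for chromosome 13 in TI-K 8. In a group of 3, 1 array's residual depends on the other 2, so the TI-K values are less independent than those of TI-KM.

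**Figure D5:**
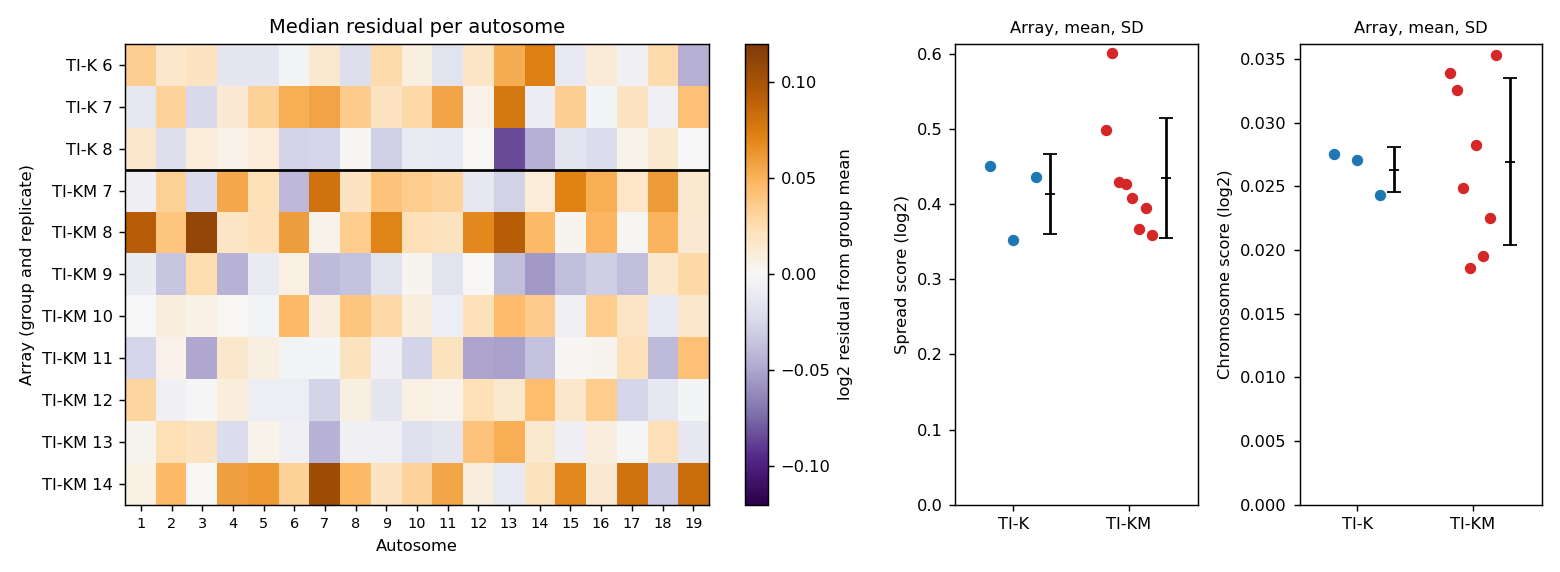
Left, median log2 residual from the group mean of the genes on each autosome in each array; right, the spread score and the chromosome score of each array with the group mean and SD (axes from 0). The largest shift is 0.110, for chromosome 3 in TI-KM 8. The TI-KM chromosome scores lie on both sides of the TI-K range, and the TI-KM spread scores reach above the TI-K range but not below it.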

How the data were processed

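The authors deposited 1 intensity per probe set, a linear signal, and the submitters' processing notes name MAS5 (version not given in the sources used here). The 2% trimmed mean was 500.003 on every array, so they needed no rescaling. The series text names MOE430A 2.0, while the deposit holds 45101 probe sets. The platform annotation named 1 gene for 34945, several for 932 and none for 9160, and 64 were controls. Probe sets above the 40th percentile of their own array in at least 3 of the 11 arrays were kept (30049). The one with the highest mean represented each gene, and 20 was added before the log2. The 14028 genes were tested with limma 3.58.1 (R 4.3.3, version 1.17.8 of data.table; variance trend, group as the only term) and adjusted by Benjamini-Hochberg. Single values were tested by exact permutation of arrays, and the fit was tested on simulated data. Figures were drawn with matplotlib. Replicate numbers only order arrays. Nothing in the labels says that each tumour is from its own animal. The p-values set a group difference against the spread between arrays, taken as independent. They may be too small if tumours share an animal. Arrays have no depth, and their number limits the precision.

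Named were Mad2l1, Bambi, Cda, the 12 largest differences each way among genes without overlap and with a mean of at least 200 in the higher group, and the leading members of lists. The gene of the oncogene transgene is not reported here. Other names (Amhr2, Nkx2-1 and genes set beside a leading member) were chosen after their values were seen. The members and the 42 lists (773 of 897 genes measured) were chosen with earlier results of these data known. Alternatives covered offset, scaling, filter, probe sets, variance model, covariates, further arrays and leaving out each array.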

Additional observations from a re-analysis of the deposited data

Results flagged for a closer look

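Over the values of the 8 TI-KM arrays, 7 of 70 quantities had 1 array whose gap to the next was above Dixon's 95% critical value of 0.526 of the range; chance gives about 1 in 20. Signals of named genes gave 2 of them, both in TI-KM 7: Naaladl2, where it was highest at 432.81, and Il18, where it was lowest at 1122.3. The others are medians, over the members of a list, of an array's log2 deviation from the mean of the 11 arrays. TI-KM 8 was highest for gastric and gut lineage genes, at 2.00, and for smooth muscle and pericyte genes, at 0.458, and lowest for WNT pathway genes, at -0.508. TI-KM 12 was highest for imprinted genes, at 0.310. TI-KM 7 was lowest for adipocyte genes, at -1.08, where 5 genes were measured.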

How the results depend on the processing

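With 3 TI-K arrays, the number of genes past an adjusted p of 0.05 was small under most settings. It was 2 without a variance trend (Chadl, Gnaz), 1 with array weights (Cbr2, adjusted p = 0.0496), 1 with all 29 arrays fitted as groups within sets (Aldh3a1, 0.0204), 2 with inferred sex as a covariate (Fbp2, 2.22, 0.0116; Aldh3a1, 2.81, 0.0342), 1 with the 18S signal as a covariate (Lifr) and 488 when all 8 TI-K primaries were used, which adds arrays of another set. Leaving out 1 array gave 0 to 8: 8 without TI-K 8, including Fgr, Cd1d1 and Cbr2, and 1 without TI-KM 8. With the 3′/5′ ratio as a covariate it was 0, with 739 genes at an unadjusted p below 0.05. Genes at such a p numbered 3477 (1745 higher, 1732 lower) with all 8 TI-K primaries, 1570 (729 higher, 841 lower) with the 18S covariate, 649 to 1259 when 1 array was left out (higher 323 to 550, lower 326 to 771, the lowest counts of all and of lower genes without TI-K 6), and 292 higher with all 29 arrays. With all 8 TI-K primaries Bambi was at 3.47 (adjusted p = 0.0247), Cda at 2.20 (0.0249) and Nudt19 at 0.090, its only change of sign; over all alternatives the adjusted p of Bambi was 0.0247 to 0.888 and that of Cda 0.0249 to 0.888. For the other 23 named genes 656 of 667 alternative values kept direction and stayed above the threshold, 10 passed it and 1 turned direction. These genes were chosen because their groups did not overlap, so leaving out 1 array could not turn their direction. None passed the threshold in the main fit, so this count does not measure how stable they are. With all 8 TI-K primaries, 20 of the 26 named genes had a difference smaller by over 1.5 times, among them Aldh3a1 at 0.98, Cbr2 at 1.10, Trim5 at -0.67, Ly75 at -0.21 and Mcemp1 at -0.11. The spread score difference ran from -0.0349 (without TI-K 7) to 0.0586 when 1 array was left out, and the chromosome score difference from -0.00257 to 0.0044; the latter was -1.61e-04 with the filter over all 29 arrays. Both scores thus have no settled sign. The causes of these changes were not tested. No paired analysis was possible because the labels give no replicate numbers that groups share.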

Other observations

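Metabolic and repair lists held few members at an unadjusted p below 0.05 by limma, and none passed adjustment; over all genes 3.26% were higher and 3.97% lower at such a p. Of 20 genes of cholesterol and fatty acid synthesis 2 were lower, the elongase Elovl6 at -0.51 ± 0.19, with every TI-KM array below every TI-K array, and the desaturase Scd1 at -0.23 ± 0.10. Of 22 genes of DNA damage response and repair 2 were higher, Xrcc5, the Ku80 subunit of end joining, at 0.57 ± 0.18 and the mismatch repair gene Msh6 at 0.50 ± 0.16. Of 22 genes of hypoxia and glycolysis 1 was lower, the phosphofructokinase gene Pfkp at -0.41 ± 0.18. Of 13 EGF ligands and receptors 1 was lower, the sheddase gene Adam17 at -0.48 ± 0.19, without overlap.

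TI-KM 8 differed from the other arrays in genes of further tissues. Anxa10, a gene of gastric epithelium, had 4371 in it and at most 511 in every other array, Gp2, a membrane glycoprotein of the gut and pancreas, 1188 against 198, and Tmem212, of ciliated cells, 3262 against 478. Its median deviation was 1.51 for club cell genes, 1.68 for ciliated cell genes and 1.07 for mesothelial genes on the log2 scale.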
